A study of Mus musculus with 24 samples.

Results

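The 12 syn libraries of this mouse brain series fell into 6 with a high level of Ttr and 6 with a low one. The series holds 24 libraries of total RNA from brain, 1 per mouse as the protocol describes, and the 12 of the syn line are the ones described here. The classes were chosen by Ttr, the gene for transthyretin, in CPM, a unit that scales the gene counts of every library to the same total. Libraries above 1000 CPM were called rich (6 libraries) and those below it poor (6 libraries). Each class held 3 syn-Cre+ EAAT2−/− mice and 3 syn-Cre− EAAT2+/+ mice. Those genotypes concern EAAT2, the glutamate transporter encoded by Slc1a2, whose loss from astrocytes or from neurons is the subject of the series. Cre recombinase removes the gene where its promoter is active, and syn is the usual short name of the synapsin promoter of neurons and gfap that of an astrocyte promoter. All Cre− mice are given as EAAT2+/+. The 12 gfap libraries, from 6 gfapCre+ EAAT2Δ/+ and 6 gfap-Cre− EAAT2+/+ mice, took no part in the split. No label or protocol used here gives the age or sex of the mice or the part of the brain taken.

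The choroid plexus is a fringe of tissue that hangs into the brain ventricles and makes cerebrospinal fluid. Its single layer of epithelial cells, joined by tight junctions, wraps a core of leaky vessels, fibroblasts and macrophages. These cells secrete carrier proteins and growth factors, pump ions and water, and move vitamins, hormones and waste between blood and fluid. Transthyretin, which carries thyroid hormone and the retinol carrier, is their best known product. In bulk tissue, fewer choroid cells and less of a transcript per cell cannot be told apart.

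The classes were made from measured Ttr and are not groups of the study. Ttr itself was therefore not tested, and genes known from the same cells are not independent of the split, so their calls describe what the classes hold. In the libraries used, gene counts summed to between 41596313 and 57802986 per library. Slc1a2 itself stood at 2692 to 3362 CPM in the libraries labelled Cre-positive and at 3147 to 3600 CPM in the Cre-negative ones, so the ranges overlapped. None of 6 library measures (gene counts, reads outside genes, ambiguous reads, multiply aligned reads, mitochondrial share, genes at 1 CPM or more) passed an exact two-sided permutation test between classes after Benjamini-Hochberg adjustment. The smallest p belonged to the number of genes at 1 CPM or more, 15140 ± 67.7 in rich and 15020 ± 60.3 in poor libraries (SD, n = 6 each; exact p = 0.02, adjusted p = 0.12, where 0.005 is the smallest p possible). Poor library Cre-negative 5 stood apart with 7.46% ambiguous reads and 11.1% outside genes, against at most 3.92% and 8.63% in the other 11.

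Ttr was at 2733, 2075 and 4918 CPM in the rich Cre-positive libraries (replicates 2, 5 and 6) and at 4992, 5194 and 3796 CPM in the rich Cre-negative ones (replicates 3, 4 and 6). It was at 91.3, 149 and 46.4 CPM in the poor Cre-positive libraries (replicates 1, 3 and 4) and at 74.6, 101 and 77.6 CPM in the poor Cre-negative ones (replicates 1, 2 and 5). No library lay between 149 and 2075 CPM, and the class means were 3951 ± 1311 and 90.1 ± 34.5 CPM (SD, n = 6 each), a ratio of 43.9. The gfap libraries spanned 20.3 to 222 CPM with a median of 85.8, so none of them reached the rich class.

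3 other choroid plexus markers separated the same libraries without overlap. Folr1 (ENSMUSG00000001827, GRCm38 chromosome 7, 101858331 to 101870788) encodes the folate receptor that carries folate across the choroid epithelium. It stood at 14.5, 13.2 and 27.0 CPM in the rich Cre-positive and 29.3, 32.5 and 20.5 CPM in the rich Cre-negative libraries, and between 0.503 and 1.44 CPM in the 6 poor ones. Its log2 difference, rich minus poor, was 4.44 (SE 0.30, interval 3.77 to 5.12, edgeR adjusted p = 1.27e-05). Every rich library was above every poor one.

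Kl (ENSMUSG00000058488, chromosome 5, 150952607 to 150993817) encodes Klotho, a coreceptor for FGF23 that the epithelium also sheds. Its lowest, median and highest level were 73.3, 123 and 169 CPM in rich libraries and 19.0, 20.8 and 25.7 CPM in poor ones. The log2 difference was 2.49 (SE 0.22, adjusted p = 0.000134), so Kl kept a level near 20 CPM where Ttr was low. Clic6 (ENSMUSG00000022949, chromosome 16, 92485736 to 92541243), a chloride intracellular channel protein, ran from 42.5 to 89.5 CPM in rich libraries with a median of 57.3. In poor libraries it ran from 1.71 to 8.09 CPM with a median of 4.14, a log2 difference of 3.70 (SE 0.37, adjusted p = 0.000397).

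**Figure D1:**
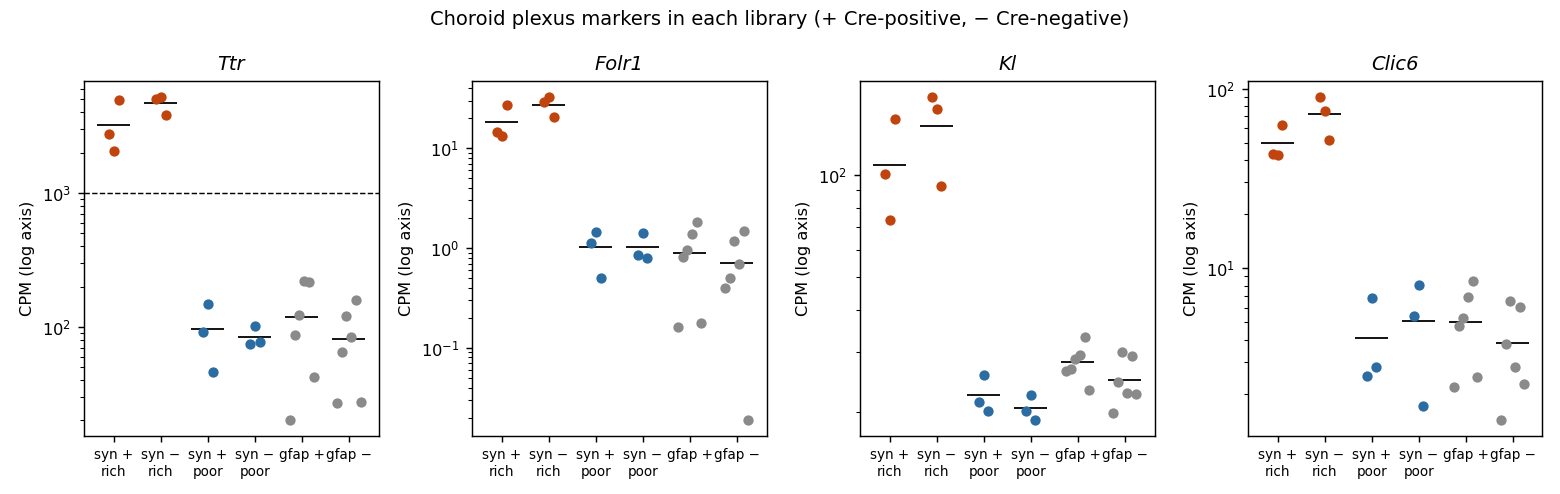
CPM on a log axis of Ttr, Folr1, Kl and Clic6 in each of the 24 libraries, by line, Cre label and class; bars are group means and the dashed line is the 1000 CPM threshold. For each of these genes the 6 rich libraries lie above the 18 others; the lowest rich Ttr value is 2075 CPM and the highest poor one 149 CPM.

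Across all genes the difference ran almost wholly in one direction. Of 20152 genes tested, 463 were called at an adjusted p under 0.05 (2.3%), 454 higher (2.25%) and 9 lower (0.0447%) in rich libraries. The test was edgeR's quasi-likelihood test with genotype as a covariate and Benjamini-Hochberg adjustment over all genes. Of the higher genes, 199 differed at least 2-fold, 46 at least 8-fold and 150 by under 1.5-fold, with a median log2 difference of 0.85. For 411 genes tested (2.04%) the classes did not overlap, and 321 of those were among the 454 called higher. The median log2 difference of all genes tested was -0.00492. Summed over the 454 genes, rich libraries held 4802 CPM more than poor ones, beside 3861 CPM from Ttr alone. Together this came to 0.866% of gene counts, and Ttr made up 44.6% of it.

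**Figure D2:**
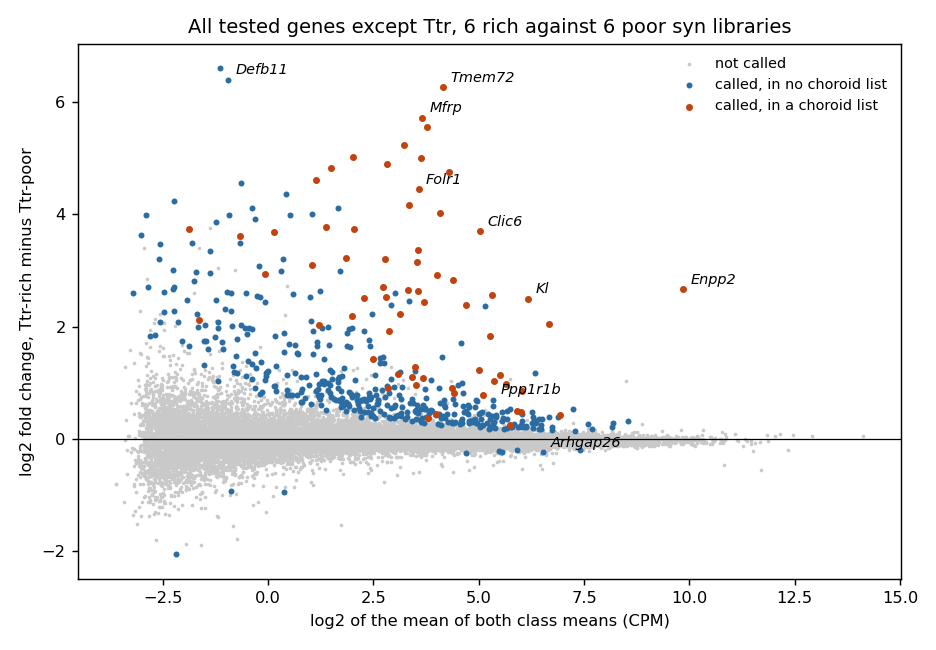
Each point is a gene tested, placed by its mean level (log2 CPM) and its log2 fold change, Ttr-rich minus Ttr-poor; red points are called members of choroid lists and blue points other called genes. The 454 called above 0 far outnumber the 9 below it.

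The 6 lists of choroid plexus genes, leaving out Ttr, held 101 tested genes, of which 65 were higher, 0 lower and 36 not called. Their median log2 difference was 1.16, beside -0.00492 for all genes, and in 59 the classes did not overlap. The lists were chosen with earlier results of these libraries known and on the tissue that Ttr marks, so nothing is read from that share against the 2.25% of all genes. The same holds for the count of each of the 6 lists below. Per kilobase of exon, the largest excess of rich over poor libraries among the choroid genes was that of Ttr (3256 CPM per kb), followed by Enpp2 (234.5 CPM per kb) and 1500015O10Rik (33.4 CPM per kb). Over all genes but Ttr, Enpp2 ranked 4, after mt-Co1, mt-Cytb and mt-Nd1, which were not called (adjusted p 0.792 to 0.867).

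Among secreted products, 11 of 16 genes were higher. Enpp2, which encodes autotaxin, the enzyme that makes lysophosphatidic acid, rose from a median of 239.8 CPM in poor libraries (205.8 to 302.8) to 1514 CPM in rich ones (1190 to 2183), log2 difference 2.66 (SE 0.19, adjusted p = 2.75e-05). Sostdc1, a secreted antagonist of BMP and Wnt signals, was at 16.9 to 28.1 CPM against 1.90 to 2.76 CPM. Its log2 difference was 3.16 (SE 0.15, adjusted p = 7.01e-08), with no overlap. 1500015O10Rik, also called Ecrg4, a secreted peptide precursor, was at 32.1 ± 7.71 against 1.96 ± 0.66 CPM (SD, n = 6 each). Wfdc2, a small protein of the whey acidic protein family, was at 4.24 ± 1.42 against 0.171 ± 0.086 CPM. F5, the gene for coagulation factor V, showed the largest difference of this list at 4.74 (SE 0.34).

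Several of the secreted genes are growth factors or their binding proteins. Igf2 was at 113 to 232 CPM in rich and 29.8 to 46.4 CPM in poor libraries, log2 difference 2.05 (SE 0.21, adjusted p = 0.000391). Igfbp2, which binds insulin-like growth factors, differed by 1.83 (SE 0.20) and Bmp6, a bone morphogenetic protein, by 1.28 (SE 0.17). A separate list of insulin-like and TGF-beta family factors shares several genes with the secreted list. It had 6 of 21 higher and 0 lower, beside 2.25% and 0.0447% of all genes. Its median was 0.10, so most of its members were near 0. The Igf2 gene is also expressed by fibroblasts of the choroid stroma and the meninges, whose markers are given below.

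Among ion and water transport genes, 9 of 19 were higher, and they ranged from genes at about 1 CPM or less in poor libraries to genes well expressed in both classes. Aqp1, the water channel of the apical membrane, was at 10.96 to 32.05 CPM in rich and 0.484 to 1.22 CPM in poor libraries (log2 difference 5.01, SE 0.34, adjusted p = 1.63e-05). Slc4a5, a sodium bicarbonate cotransporter, differed by 5.55 (SE 0.34), the largest of the list. The potassium channel genes Kcnj13 and Kcne2 differed by 5.01 (SE 0.30) and 4.90 (SE 0.27). At the other end, Slc4a2, an anion exchanger, was at 43.8 to 64.1 against 22.9 to 31.0 CPM (1.03, SE 0.09). Slc12a2, the sodium potassium chloride cotransporter NKCC1, differed by 0.43 (SE 0.07, adjusted p = 0.000843), and 1 poor library, Cre-negative 2 at 121.2 CPM, was above the lowest rich one at 120.7 CPM. Atp1b1, a subunit of the sodium pump that neurons share, was at 1510 to 1600 CPM in rich and 1469 to 1590 CPM in poor libraries and was not called (0.01, interval -0.07 to 0.09).

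Among solute carriers, 13 of 21 were higher. Abca4, a lipid flippase best known from photoreceptors, was at 15.1 to 28.2 CPM in rich and 1.65 to 2.51 CPM in poor libraries (3.36, SE 0.21, adjusted p = 2.8e-06). Slc39a4, a zinc importer, was at 2.39 to 5.00 against 0.640 to 1.13 CPM (2.03, SE 0.20). Slco1c1, which carries thyroid hormone and is also found in brain vessels, was at 67.8 to 82.5 against 50.1 to 57.4 CPM. That is a log2 difference of only 0.48, yet its SE of 0.05 placed it past the threshold (adjusted p = 1.01e-05).

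Among receptors and surface proteins, 7 of 10 were higher. Mfrp, a membrane protein with frizzled-like domains, showed the largest difference, at 12.1 to 38.5 CPM in rich and 0.242 to 0.683 CPM in poor libraries (5.71, SE 0.39, adjusted p = 1.71e-05). Its reads may be shared with C1qtnf5, which overlaps it. Lepr, the leptin receptor, was at 4.15 to 8.75 against 0.992 to 2.55 CPM (2.18, SE 0.23). Htr2c, the serotonin receptor of the epithelium that many neurons express too, was at 67.9 to 102 against 29.9 to 57.6 CPM (0.86, SE 0.16, adjusted p = 0.0149). Its call was lost in 3 of 25 alternatives, among them the fit with the number that starts the sample titles as a block (0.818, adjusted p = 0.141).

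Among transcription factors and retinoid genes, 6 of 12 were higher. Otx2, the homeobox factor that choroid epithelium needs to form, was at 9.15 to 17.3 CPM in rich and 0.727 to 2.27 CPM in poor libraries (3.20, SE 0.29, adjusted p = 6.39e-05). Msx1, another homeobox factor, differed by 1.92 (SE 0.15), and Rdh5, a retinol dehydrogenase, by 2.71 (SE 0.22). Stra6, the membrane receptor for the retinol carrier, differed by 0.44 (SE 0.11, adjusted p = 0.0345), a call that was lost in 13 of 25 alternatives. Foxj1, the factor for motile cilia, was at 10.7 to 18.3 against 6.76 to 16.3 CPM and was not called (0.59, interval 0.08 to 1.10, adjusted p = 0.392).

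Otx2 and its relatives bind a short core, TAATCC. The promoters below are of choroid genes that, like Otx2, were higher in rich libraries. They do not represent all such genes, since Mfrp, Ace and Abca4 are among the few with a match. Whether Otx2 acts on these genes was not tested. Of the 65 choroid genes called higher, 52 had at least 1 window in the RefSeq promoter table of GRCm38.p6, 73 windows in all. Within 150 bases before the start the core or its reverse complement GGATTA was found in 6 of the 73 windows (8.22%) and in 1183 of all 32851 windows (3.6%). The 6 belong to Abca4, Ace, Car14, Mfrp, Slc39a12 and Vat1l. Mfrp (chr9:44101620-44101769), Ace (chr11:105967798-105967947) and Abca4 (chr3:122044310-122044459) each hold 1 match, set in capitals, and Kl (chr5:150952457-150952606) holds none. A second Ace window (chr11:105975039-105975188) holds no match and is not printed. The printed windows are on the plus strand, 5′ to 3′, and end at the base before the RefSeq start. A match is not shown to be a bound site.
Mfrp: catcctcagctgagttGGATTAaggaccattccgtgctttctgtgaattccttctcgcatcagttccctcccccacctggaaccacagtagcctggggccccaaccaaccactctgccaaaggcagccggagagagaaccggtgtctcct
Ace: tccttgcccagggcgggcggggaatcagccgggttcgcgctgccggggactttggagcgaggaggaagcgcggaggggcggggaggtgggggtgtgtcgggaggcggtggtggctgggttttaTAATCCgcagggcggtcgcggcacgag
Abca4: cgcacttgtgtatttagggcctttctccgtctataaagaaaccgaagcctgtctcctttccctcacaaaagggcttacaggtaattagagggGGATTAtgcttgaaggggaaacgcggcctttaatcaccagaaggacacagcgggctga
Kl: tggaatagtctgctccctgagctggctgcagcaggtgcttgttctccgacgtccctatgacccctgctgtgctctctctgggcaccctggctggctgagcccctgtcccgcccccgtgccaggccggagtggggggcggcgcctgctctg

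Among junction, matrix and cytoskeleton genes, 19 of 23 were higher, the fullest of the 6 lists. Tmem72, a membrane protein of little known function, had the largest difference of all choroid genes tested, at 20.3 to 51.8 CPM in rich and 0.181 to 0.794 CPM in poor libraries (6.26, SE 0.44, adjusted p = 2.81e-05). Cldn2, the claudin that makes epithelial junctions leaky to cations, was at 8.75 to 27.7 against 0.335 to 0.642 CPM (5.22, SE 0.33). Pcolce, an enhancer of collagen processing, differed by 2.22 (SE 0.14, adjusted p = 7.54e-08). Cab39l, a partner of the kinase LKB1, differed by 0.97 (SE 0.07), and Cox8b, a subunit of cytochrome oxidase, by 3.69 (SE 0.31).

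Within the rich class, Folr1, Aqp1 and Slc4a5 kept a near constant ratio to Ttr, while their levels and Ttr varied 2-fold or more between libraries. Per 1000 CPM of Ttr, Folr1 stood between 5.32 and 6.36 CPM in the 6 rich libraries, Aqp1 between 5.28 and 6.52, and Slc4a5 between 5.51 and 7.57. F5 was looser, from 5.77 to 12.5 CPM. For Kl, Clic6, Kcnj13, Mfrp, Cldn2 and Tmem72 the highest ratio was 1.51 to 1.8 times the lowest, against 1.2 for Folr1. In the poor class the ratio of Slc4a5 was similar, 4.78 to 7.23 CPM, whereas that of Folr1 was 9.65 to 13.9 and that of Kl 172 to 435, against 24.4 to 36.9 in rich libraries. The ratio of Slc4a5 thus overlapped between the classes, as did those of Aqp1, F5, Mfrp, Cldn2, Tmem72 and Kcnj13. Those of Folr1, Kl and Clic6 did not.

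Outside the choroid lists, 389 of 20051 genes tested (1.94%) were called higher, 370 of them in no list at all. The 10 with the smallest p were Pla2g5, Epn3, Oca2, Ppp1r1b, Cpq, Itpripl1, Emb, Defb11, Sfrp1 and Gpx8, and in each of them every rich library was above every poor one. They were picked by p for this class difference in the same libraries, so that separation was largely set beforehand. The classes did not overlap for 2.04% of all genes tested. Oca2, a melanosome transporter, was at 1.54 to 6.09 CPM in rich and 0.148 to 0.363 CPM in poor libraries (4.01, SE 0.30, adjusted p = 8.6e-07). Pla2g5, a secreted phospholipase, was at 2.69 to 4.05 against 0.337 to 0.683 CPM (2.52, SE 0.18), and Epn3, an adaptor for endocytosis, at 6.82 to 10.9 against 1.47 to 2.60 CPM (2.22, SE 0.15). Sfrp1, a secreted Wnt antagonist, differed by 1.35 (SE 0.12) and Gpx8, a peroxidase of the endoplasmic reticulum, by 1.95 (SE 0.18). Defb11, a beta-defensin, was at 0.353 to 1.56 CPM in the rich libraries. It had no count in 5 of the poor libraries and 0.0602 CPM in the other, Cre-negative 2. Defb11 passed the filter for tested genes through the rich libraries, as did other genes near 0 in the poor class. Of the 454 genes called higher, 14 had a mean under 0.05 CPM in the poor class.

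Some of these genes, such as Ppp1r1b and Emb, were well expressed in both classes. Ppp1r1b, which encodes DARPP-32, a target of dopamine signalling in striatal neurons, was at 43.3 to 52.9 CPM in rich and 27.5 to 35.9 CPM in poor libraries (0.70, SE 0.06, adjusted p = 8.6e-07). It was on a list of 14 tested striatal genes with a median of 0.13. Of these, 2 were higher and 0 lower, beside 2.25% and 0.0447% of all genes. The other was Sh3rf2, at 0.304 to 0.947 against 0 to 0.148 CPM (3.35, SE 0.45), while Pde10a, the lowest of the list, was at -0.14 and not called. Cpq, a secreted peptidase, differed by 0.89 (SE 0.08) and Emb, a partner of monocarboxylate carriers, by 0.69 (SE 0.06). Itpripl1, a membrane protein, was lower, at 3.32 to 5.30 CPM in rich and 0.78 to 1.44 CPM in poor libraries (2.00, SE 0.17).

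Only 9 genes were lower in rich libraries, by a median of -0.24. In 4 of the 9 the classes did not overlap, beside 2.04% of all genes tested. The 9 were called on this difference, so that separation was partly set beforehand. Kndc1, a brain guanine nucleotide exchange protein, was at 149 to 167 CPM in rich and 170 to 189 CPM in poor libraries (-0.19, SE 0.04, adjusted p = 0.00739). Kcnb2, a potassium channel subunit of neurons, was at 22.7 to 26.1 against 26.4 to 30.4 CPM (-0.26, SE 0.05, adjusted p = 0.01). Arhgap26, a GTPase-activating protein, was at -0.24 (SE 0.05, adjusted p = 0.00585), with ranges that overlapped. Rsph6a, a sperm radial spoke protein, had the largest fall at -2.06 (SE 0.46, adjusted p = 0.0179), from 0.258 to 0.522 CPM in poor to 0 to 0.218 CPM in rich libraries. The others were Setbp1 (-0.23), Dkk2 (-0.93), Pdlim7 (-0.21), Cacng2 (-0.20) and Npsr1 (-0.93), with adjusted p between 0.0293 and 0.049. The calls of those 5 were lost in 11 to 16 of the alternatives each. DESeq2 called 40 genes lower.

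Ependymal cells line the ventricles next to the choroid plexus and carry motile cilia. Of 27 tested genes of ependyma and cilia, 8 were higher and 0 lower, beside 2.25% and 0.0447% of all genes. The list had 25 above 0 and a median of 0.42. Nek5, a kinase linked to cilia, was at 1.45 to 2.79 CPM in rich and 0.313 to 0.823 CPM in poor libraries (1.89, SE 0.23, adjusted p = 4.4e-05). Pifo, a protein of the ciliary base, differed by 1.56 (SE 0.22) and Cfap126 by 0.91 (SE 0.16), and neither overlapped between classes. The summed level of the list was 84.2 to 151 CPM in rich and 69.4 to 115 CPM in poor libraries, so as a whole it overlapped. How much of the difference comes from ependyma was not tested.

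Of 22 tested genes of meningeal fibroblasts, 2 were higher and 0 lower, beside 2.25% and 0.0447% of all genes. The list had a median of 0.76 and 21 above 0. Postn, a matrix protein, was at 1.88 to 8.31 CPM in rich and 1.15 to 1.85 CPM in poor libraries (1.23, SE 0.24, adjusted p = 0.00685). Its highest value was in Cre-positive 5 and all rich libraries were above all poor ones. Lum, the proteoglycan lumican, was at 3.53 to 8.17 against 2.29 to 4.52 CPM (0.69, SE 0.15, adjusted p = 0.0143) and overlapped. Without Cre-negative 6, the rich library lowest in Lum, 9 of the 22 were called higher, beside 529 of all 20725 genes. Without Cre-positive 2, 6 were, beside 486 of 20746. Without Cre-positive 4, Cre-positive 6 or Cre-negative 4 only 1 was, where 361 to 365 of all genes were called higher. The summed list was at 407 to 574 CPM in rich and 384 to 482 CPM in poor libraries, and its part in the result was not tested.

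The list of border macrophages and class II antigen presentation had 2 of 15 genes higher and 0 lower, beside 2.25% and 0.0447% of all genes. All 15 were above 0, with a median of 0.61. H2-Aa, a class II chain, was at 1.15, 3.99 and 6.33 CPM in the rich Cre-positive and 3.76, 3.69 and 1.79 CPM in the rich Cre-negative libraries. It was at 0.670 to 1.26 CPM in the poor libraries (1.72, SE 0.37, adjusted p = 0.0278). Cre-positive 2 thus lay within the poor range. H2-Ab1 differed by 1.53 (SE 0.35, adjusted p = 0.0363), and both calls were lost in 13 of 25 alternatives. Leaving out 1 library at a time, the list had between 0 and 4 called, 4 without Cre-positive 2 or Cre-negative 6, 1 without Cre-negative 2 and 0 without any 1 of Cre-positive 1, 3, 4 or 5 or Cre-negative 1, 3, 4 or 5. Over all genes, the fits with 1 library left out called 361 to 529 higher, the most without Cre-negative 6. The summed list was at 36.6 to 79.8 CPM in rich and 34.0 to 61.4 CPM in poor libraries.

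Bst2 and Ifi27 were the 2 called of 21 interferon-response genes. Over all genes, 2.3% were called, the share to set beside this and the next 2 lists. Bst2, a restriction factor, was at 3.70 to 6.41 against 2.22 to 3.39 CPM (0.84, SE 0.15) and Ifi27 at 43.8 to 51.1 against 34.0 to 41.0 CPM (0.39, SE 0.05). Slc38a3, a glutamine carrier, was the single call of 16 genes of the glutamate cycle (0.40, SE 0.07, adjusted p = 0.00245). Bmp4 was the single call of 12 genes on the list of oligodendrocyte precursors (1.15, SE 0.20, adjusted p = 0.00176).

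With all 12 libraries, lists of the cells that make up most brain tissue held no called gene, beside 2.3% of all genes. The lists were endothelium (0 of 18, median -0.02), mural cells (0 of 12, 0.02), microglia (0 of 19, 0.01), astrocytes (0 of 18, -0.04), oligodendrocytes (0 of 16, -0.02), excitatory neurons (0 of 16, -0.06) and interneurons (0 of 17, -0.07). At that share a list of this size may hold no call, so nothing is read from these counts. The vessel glucose carrier Slc2a1 was at 78.2 ± 5.37 CPM in rich and 79.3 ± 16.1 CPM in poor libraries, and the pericyte gene Rgs5 at 98.0 ± 10.3 and 101 ± 9.30 CPM (SD, n = 6 each). The microglial receptor Csf1r stood at 114 ± 8.19 and 113 ± 8.25 CPM and the myelin gene Mbp at 2796 ± 418 and 2832 ± 425 CPM. Slc1a2, the astrocyte marker, stood at 3215 ± 277 and 3306 ± 213 CPM, Camk2a, a kinase of excitatory neurons, at 3669 ± 209 and 3726 ± 136 CPM, and Gad1, the GABA enzyme, at 416 ± 36.6 and 430 ± 9.25 CPM. All of these ranges overlapped. Lists of cortex, hippocampus, thalamus with habenula, hypothalamus, midbrain, hindbrain, cerebellum, olfactory bulb, pituitary with pineal, and blood also had 0 called, and the same limit holds for them. Without Cre-negative 2, the poor library highest in Mbp, Trf of the oligodendrocyte list was called higher, and 16 of 16 genes of that list were above 0 (median 0.10), against 6 of 16 with it. In that fit Lhx6 of the interneuron list was called lower, and Man1a of the hippocampus list and Eomes, which the cerebellum and olfactory bulb lists share, higher. Over all 20717 genes that fit called 499 higher and 19 lower. Man1a was also called without Cre-positive 2 or Cre-negative 6. These genes are named after their values were seen.

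1 rich library, Cre-positive 5, was high in several genes of the hypothalamus, thalamus and interneuron lists. Baiap3, of the hypothalamus list, was at 44.8 CPM there and at 8.81 to 12.8 CPM in the other 5 rich libraries. Gad2, a second GABA enzyme, was at 260.1 CPM against 155.5 to 190.8 CPM, and Adarb1, of the thalamus list, at 226.7 CPM against 177 to 184 CPM. Peg10, also of the hypothalamus list, was at 43.3 CPM there and at 13.04 to 25.2 CPM in the other rich libraries. Rora, of the thalamus list, was at 65.1 against 40.96 to 58.1 CPM. Poor library Cre-negative 1 was at 40.1 CPM for Peg10 and 27.6 CPM for Baiap3, and Rora reached 56.9 CPM in the poor class. Without Cre-positive 5, 447 genes were called between classes, 420 higher and 27 lower, and 68 of the 101 choroid genes were higher.

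Immediate early genes, which neurons switch on with activity, had 0 of 21 called, beside 2.3% of all genes, with 19 below 0 and a median of -0.21. Egr1 was at 72.6 to 113 CPM in rich and 77.2 to 266 CPM in poor libraries, and Homer1 at 82.3 to 136 and 80.8 to 196 CPM. The highest value of both was that of poor library Cre-negative 2. Without that library the median was -0.10, 19 of 21 were below 0, and over all genes 518 were called between classes, 499 of them higher. Without Cre-positive 2, 1 of the 21, Nr4a2, was called lower, beside 17 of all 20746 genes.

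**Figure D3:**
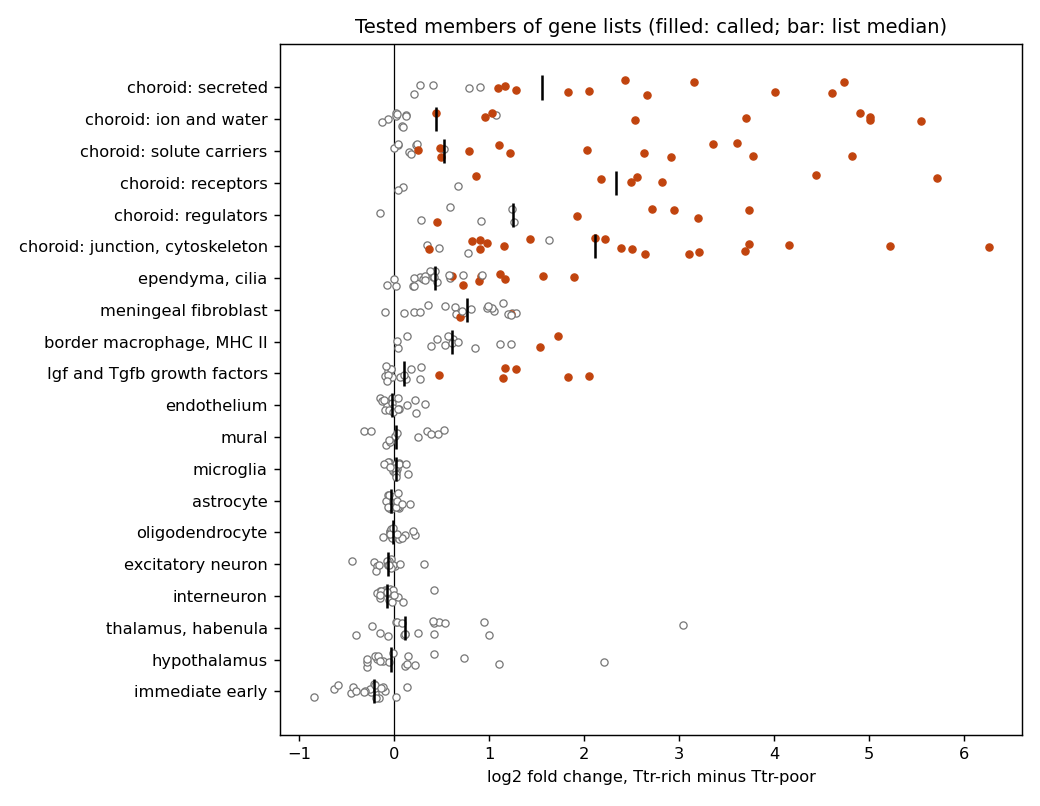
Each point is a tested gene of a list, placed by its log2 fold change, Ttr-rich minus Ttr-poor; filled points are called and bars are list medians. The 6 choroid lists spread from near 0 to 6.26, whereas lists of endothelium, microglia, astrocytes and oligodendrocytes lie close to 0. They hold no filled point, where 2.3% of all genes were called.

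**Figure D4:**
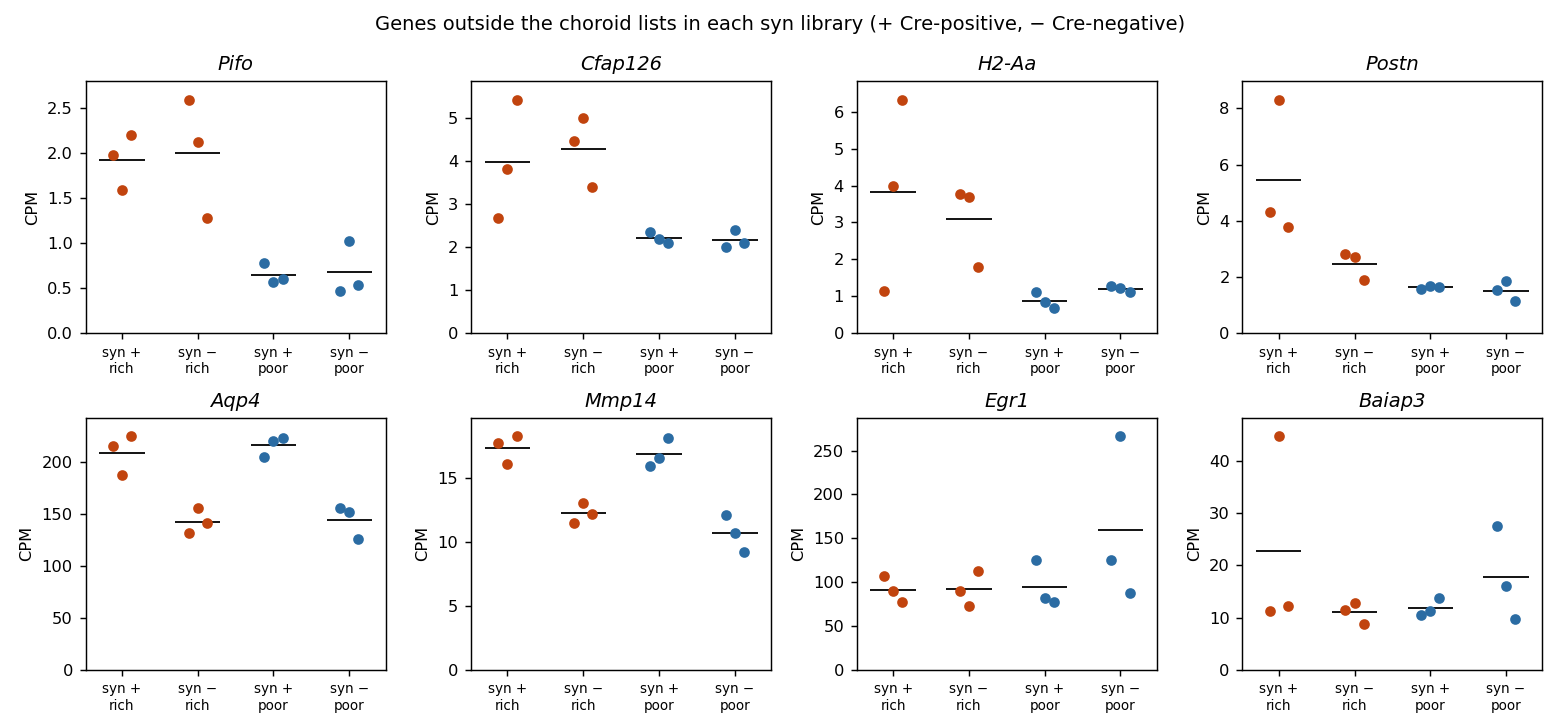
CPM of 8 genes outside the choroid lists in the 12 syn libraries, by Cre label and class; bars are means of 3 libraries. Pifo, Cfap126 and Postn separate the classes, H2-Aa does so apart from Cre-positive 2 at 1.15 CPM, Aqp4 and Mmp14 differ by Cre label, and single libraries stand out for Egr1 (266 CPM) and Baiap3 (44.8 CPM).

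The class difference was present in both genotypes. In the Cre-positive libraries alone, 3 rich against 3 poor, 248 of 19092 genes were called higher (1.3%), 200 of which were among the 454. In the Cre-negative libraries alone 181 of 19216 were called higher (0.942%), all of them among the 454, and 120 of the 454 were called in both. Of the 436 tested in both genotypes, 436 were above 0 in both. The 454 were called from these libraries together, so the shared sign and the overlap of calls were largely set beforehand. The log2 difference of Folr1 was 4.16 (SE 0.50) in Cre-positive and 4.72 (SE 0.24) in Cre-negative libraries, and that of Kl 2.25 (SE 0.31, edgeR adjusted p = 0.0695) and 2.72 (SE 0.23, adjusted p = 0.00398). Clic6 was at 3.60 and 3.78 and was called in neither genotype alone (adjusted p = 0.0625 and 0.148). In the interaction of class and genotype edgeR called 0 of 20152 genes (0%), 1173 had an unadjusted p under 0.05, and DESeq2 called 2. The interaction of Folr1 was -0.57 (SE 0.61, adjusted p = 0.922).

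With the class in the model, 2 of 20152 genes (0.00992%) differed between genotypes, both higher in Cre-positive libraries, and 1061 had an unadjusted p under 0.05. DESeq2 called 26, 10 higher and 16 lower in Cre-positive libraries. Without Cre-positive 5 edgeR called 4, 1 of them lower. Aqp4, the water channel of astrocyte endfeet, was at 204.8, 215.3, 220.8, 222.9, 187.4 and 224.8 CPM in Cre-positive replicates 1 to 6. It was at 156.2, 151.5, 131.5, 155.5, 125.5 and 141.3 CPM in the Cre-negative ones, so the genotypes did not overlap (log2 difference 0.55, SE 0.06, interval 0.43 to 0.67, adjusted p = 0.000338). Mmp14, a membrane metalloprotease, was at 15.9 to 18.3 against 9.21 to 13.1 CPM (0.57, SE 0.07, adjusted p = 0.00408). Neither was called between classes, with 176 ± 39.1 and 180 ± 41.1 CPM for Aqp4 (SD, n = 6 each; -0.04, interval -0.16 to 0.08). A fit without the class term also called 2 genes, and in it Aqp4 was at 0.55 and Mmp14 at 0.57. Slc1a2 was at -0.14 (SE 0.05, adjusted p = 0.789) and not called.

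The gfap libraries, which the split did not use, gave a separate view of genes that move with Ttr. There Ttr varied over 20.3 to 222 CPM, and each gene was fitted against log2 Ttr with genotype as a covariate. Of 18330 genes tested, 10 were called (0.0546%), all with a positive slope, and 1582 had an unadjusted p under 0.05. Negative slopes were called in alternatives, 12 of 40 with voom, 3 of 17 without gfap Cre-negative 4 and 1 of 11 without gfap Cre-positive 2. Folr1 changed by 1.07 per doubling of Ttr (SE 0.16, adjusted p = 0.0198), from a level of 0.0191 to 1.81 CPM. Slc4a5 had a slope of 0.96 (SE 0.16), Mfrp 0.91 (SE 0.14), 1500015O10Rik 0.80 (SE 0.08), Aqp1 0.69 (SE 0.12), F5 0.64 (SE 0.10) and Clic6 0.62 (SE 0.07). Kl had a slope of 0.13 (SE 0.03) and was not called (adjusted p = 0.36). The call of Clic6 held in all 15 alternatives. Those of Folr1 and Mfrp were each lost in 4 of 14, that of Slc4a5 in 8 of 14, Aqp1 in 11 of 14 and F5 in 9 of 15.

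The remaining called genes in the gfap libraries lay outside the choroid lists. Drc7, a part of the dynein regulatory complex of cilia, had a slope of 0.46 (SE 0.07, adjusted p = 0.0258). It was also called in the syn libraries, at 11.6 to 23.3 CPM in rich and 2.22 to 4.10 CPM in poor ones (2.45, SE 0.22). Angptl2, a secreted angiopoietin-like protein, had a slope of 0.46 (SE 0.08, adjusted p = 0.043) and a syn difference of 1.76 (SE 0.20). Ak7, an adenylate kinase of cilia, had a slope of 0.69 (SE 0.11, adjusted p = 0.0326) but was not called in the syn libraries (0.40, interval -0.16 to 0.97). The gfap calls of Drc7, Angptl2 and Ak7 were lost in 7, 10 and 9 of 15 alternatives.

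In all, 9 of the 10 gfap calls (90%) were among the genes called higher in syn, which is 2.31% of the 390 of those that could be tested there. Of the 390, 300 had a positive slope (76.9%), against 50.1% of all genes. Outside the choroid lists it was 248 of 332 (74.7%). At an unadjusted p under 0.05, 99 of the 390 were positive and 2 negative. Of the choroid lists, 76 of 94 tested genes had a positive slope with a median of 0.12, and 7 were called, against a median of 0.000128 for all genes. Of the 9 genes lower in syn, 6 had a negative slope and 0 were called. The gfap and syn libraries share no mouse, and no gfap library was above 222 CPM of Ttr. With 1 library left out the number of gfap calls ran from 2 (without gfap Cre-positive 5, Cre-positive 6 or Cre-negative 5) to 17 (without gfap Cre-negative 4), and with a filter of at least 1 CPM in 6 libraries it was 3.

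**Figure D5:**
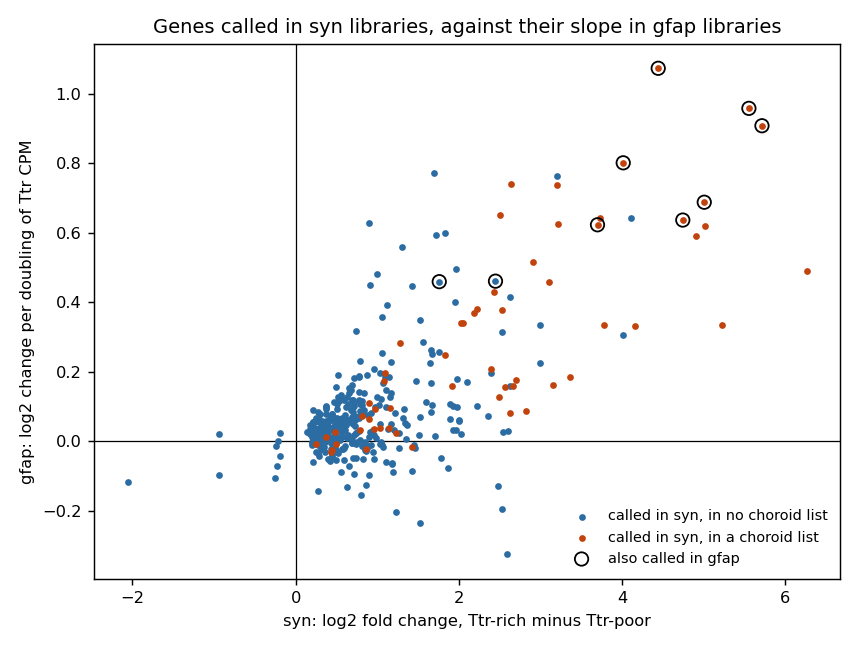
Each point is a gene called between the syn classes and tested in the gfap libraries; the horizontal axis is its log2 fold change, Ttr-rich minus Ttr-poor, and the vertical axis its log2 change per doubling of Ttr CPM in the 12 gfap libraries. Most genes called higher lie above 0 on the vertical axis (300 of 390), and the 9 circled ones were called in both.

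Among the most variable genes, the first axis of variation between the syn libraries followed the classes. Over the 500 most variable genes the first principal component held 46.1% of the variance and separated rich from poor libraries. Genes that share a source with Ttr can be among these 500, so the separation is not independent of the split. With the choroid genes removed the first component held 32.5% and still separated the classes. With all called genes removed as well it held 19.2%, and none of the first 3 components separated the classes. Those genes were picked for this class difference in the same libraries, so its loss was largely set beforehand. The set without choroid genes could still hold the other called genes. Neither step shows how far the class difference extends. The genotypes were separated by none of the first 3 components in any of these sets.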

How the data were processed

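Total RNA of mouse brain was sequenced from 24 mice. The authors deposited 1 table of whole-number read counts per library. Reads were aligned to mm10 with HISAT2 and counted per gene with HTSeq 0.6.0, and DESeq2 1.6.3 was also named, per the submitters' processing notes. Whether counting used strand is stated nowhere in the labels, so reads of overlapping genes are uncertain. The 5 summary lines that end each table name no gene and entered neither library sizes nor tests; in the syn libraries reads outside genes made up 7.52 to 11.09% of the table total, ambiguous ones 3.193 to 7.457% and multiply aligned ones 14.03 to 15.34%.

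Groups came from the genotype and cell type labels. The classes came from Ttr, above or below 1000 CPM of gene counts, and Ttr stayed in library sizes and left the tests. Printed CPM are without normalization factors. edgeR 4.0.16 (R 4.3.3) gave the main result, with TMM factors of 0.952 to 1.02, filterByExpr on genotype by class, a robust quasi-likelihood fit of genotype and class (9 residual degrees of freedom) and Benjamini-Hochberg adjustment over all genes tested. That filter used the classes, so genes near 0 in poor libraries, such as Defb11, Wfdc2, Cox8b and Sh3rf2, entered through the rich ones. Calls are adjusted p under 0.05. Intervals are 95% and not adjusted. The same test gave the interaction and, in the 12 gfap libraries, the slope on log2 Ttr. Every adjusted p in the text that is not called an exact or permutation p is from edgeR. The script was tested on simulated data.

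Symbols were found for 52403 of 52636 identifiers (99.6%), and 74 identifiers share one. Coordinates are GENCODE M21 (GRCm38) and promoters RefSeq (GRCm38.p6). In each of the 30 pairs of syn libraries of 1 group the counts lay further apart than sampling allows (6.65 to 134.2 units of chi-square for each gene), so no library was counted as a repeat, and p-values measure the spread between these mice.

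The text names the markers, up to 3 genes per choroid list by smallest p, the 10 other called genes per direction with the smallest p, up to 3 called members of each other list or, with none called, its 2 most abundant, the genes called between genotypes, and the 10 gfap calls. Of the genes so taken, 31 uncalled ones are not printed. 1 called gene is not reported here. Enpp2, Aqp1, Slc4a5, Cldn2, Tmem72, F5, Htr2c, Slc12a2, Atp1b1, Foxj1 and Angptl2 were named after their values were seen. Members and lists were chosen with earlier results of these data known. Alternatives were RLE and upper-quartile factors, TMM without choroid genes, no filter, a filter of 1 CPM in 6 or more libraries, DESeq2 (1.42.0), voom with quality weights (limma 3.58.1), no genotype term, log2 Ttr as a continuous term, each genotype alone, all 24 libraries, leaving out each library and, added after seeing the data, the number that starts the titles as a block.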

Additional observations from a re-analysis of the deposited data

Results flagged for a closer look

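In 12 of 184 values tested in groups of 6, the highest or lowest library lay farther from the rest than Dixon's 95% critical value of 0.625 allows; chance flags about 5% of such groups. In the rich class all 3 concerned Cre-positive 5. Gad2, a GABA enzyme, was at 260.1 CPM there and at 155.5 to 190.8 CPM in the others. Adarb1 was at 226.7 CPM against 177.4 to 183.8 CPM, and Baiap3 at 44.77 CPM against 8.815 to 12.78 CPM.

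In the poor class 5 concerned Cre-negative 2. Egr1, an immediate early gene, was at 266.3 CPM there and at 77.24 to 125.1 CPM in the others. Mbp, a myelin gene, was at 3665 CPM against 2508 to 2818 CPM. Lepr was at 2.549 CPM against 0.9921 to 1.453 CPM and Ak7 at 7.546 CPM against 2.957 to 4.584 CPM. Defb11 was at 0.06021 CPM and at 0 in the others.

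Of the remaining flags, Baiap3 was at 27.61 CPM in poor library Cre-negative 1 and at 9.712 to 16.07 CPM in the others. Slc4a5 was at 0.9418 CPM in poor library Cre-positive 3, which also had the highest Ttr of its class, and at 0.3352 to 0.5619 CPM in the others. Poor library Cre-negative 5 had 11.09% of reads outside genes, against 8.004 to 8.631%, and 7.457% ambiguous reads, against 3.25 to 3.356%.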

How the results depend on the processing

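The count of genes called between classes (463) ran from 380 to 668 over the 11 alternatives that kept all 12 libraries or added the gfap ones, and from 366 to 553 with 1 library left out. With 3 against 3 libraries it was 256 in Cre-positive and 184 in Cre-negative mice, where fewer samples entered. DESeq2 called 26 genes between genotypes, against 2 from edgeR, and 2 in the interaction. The gfap slope called 3 genes with the 1 CPM filter and 40 with voom. Leaving out 1 library gave 2 to 4 genotype calls (4 without Cre-positive 5 or Cre-negative 2), 0 to 1 interaction calls (1 without Cre-positive 6) and 2 to 17 gfap calls.

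Signs turned only for genes that were not called, and the cause was not tested. Csf1r was at -0.00129 with RLE, -0.00133 with DESeq2, -0.0652 in Cre-negative mice alone and -0.00561 with 24 libraries. Voom gave 0.00662 for Slc2a1, 0.0059 for Mbp and -0.044 for Baiap3. Continuous Ttr gave -0.0456 for Baiap3 and -0.00115 for Gad2. Cre-positive mice alone gave 0.215 for Slc2a1, 0.163 for Mbp, 0.0323 for Adarb1 and 0.239 for Peg10. Cre-negative mice alone gave -0.721 for Baiap3, -0.0505 for Gad2 and -0.0178 for Rora. With 1 library left out, Csf1r ran from -0.0283 to 0.0406, Slc2a1 from -0.0692 to 0.0649, Mbp from -0.103 to 0.063, Baiap3 from -0.403 to 0.401, Gad2 from -0.0768 to 0.0902, Rora from -0.0857 to 0.0805 and Atp1b1 from -0.00498 to 0.0276. The class difference in ambiguous reads ran from -0.643 to 0.198 percentage points and was above 0 only without Cre-negative 5. Genotypes could not be paired, because replicate numbers here follow accession order and the number that starts each title occurs in 1 genotype only (0 of 5 in both). Both classes occurred in 4 of the 5 numbers. What the title number stands for is not stated. As a block in place of genotype, an alternative added after seeing the data (6 residual degrees of freedom), it gave 416 class calls, 401 higher. These included 368 of the 454, and all 454 were above 0. The 454 were called from the same libraries, so that sign was largely set beforehand. The block turned Slc2a1 to 0.0103, Peg10 to 0.118 and Atp1b1 to -0.0107.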
